A study of Mus musculus with 12 samples.

Results

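Lgi3, Myo5c and S100a16 were examined across the 12 whole-lung libraries of the study. These 3 genes were taken by symbol from the 52550 genes of the count table because the study drew them as cell type markers that were lower after LPS in Adm+/- mice, so they were selected on the log2 fold changes between these groups, and their values are given as a description, with no p-value. Where their place beside the call limits of the fit over all genes is given, it describes them and is no evidence for the change they were chosen for. The label for the set is type II pneumocyte marker, but the study itself names only Lgi3 and Myo5c as type II pneumocyte markers and names S100a16 as an endothelial cell marker. They are therefore called here the 3 genes.

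The lungs came from C57Bl/6J mice at postnatal day 5. WT mice carried 2 intact copies of Adm, which encodes the vasoactive peptide adrenomedullin, and Adm+/- mice carried 1, since complete loss is lethal before birth. Each genotype received 3 daily intraperitoneal injections from postnatal day 3 of either 6 mg/kg Escherichia coli O55:B5 lipopolysaccharide (LPS), a bacterial endotoxin used to model bronchopulmonary dysplasia, or an equal volume of phosphate-buffered saline (PBS), and lungs were taken 6 hours after the last dose. The allele was constitutive, so every cell type of the Adm+/- lung lacked 1 copy. Each of the 4 groups (WT PBS, WT LPS, Adm+/- PBS and Adm+/- LPS) held 3 libraries, named below by the library number of the labels. The labels do not say whether mice came from separate litters, so p-values measure only the spread between these libraries.

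Type II pneumocytes are the cuboidal cells of the alveolus that make surfactant, store it in lamellar bodies and give rise to type I pneumocytes. Lgi3 encodes a secreted protein of the leucine-rich glioma inactivated family, whose members bind ADAM22 and ADAM23 on the cell surface. Myo5c encodes a class V myosin, an actin motor that carries secretory granules in glandular epithelium together with Rab GTPases. S100a16 encodes a small calcium-binding protein of the S100 family with broad expression in epithelial and other cells.

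In mm10 coordinates with Gencode M21 gene models, Lgi3 lies on chr14:70530685-70538324, with 3899 exonic bases and with Sftpc, the surfactant protein C gene, 6603 bases to its left. Myo5c lies on chr9:75232020-75305451, with 9697 exonic bases, 8331 bases from its paralog Myo5a and 836 bases from Gnb5. S100a16 lies on chr3:90537254-90543151, with 1617 exonic bases, inside the S100 gene cluster between S100a14 and S100a3. All 3 genes are on the plus strand and no other annotated gene overlaps any of them, so their reads do not have to be shared with an overlapping transcript.

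RefSeq promoter sequence (GRCm38.p6) was held for Myo5c and for 2 start sites of S100a16, and the 250 bases before each start are shown because both genes were lowest in the same libraries. Capitals mark matches, on either strand, to 8 motifs: the TATA box TATAAA, the CCAAT box CCAAT, the GC box GGGCGG, the E-box CACGTG, the AP-1 site TGANTCA, the NKX2-1 core CTCAAG, the forkhead core TGTTTAC and the ETS core CCGGAAGT. No marked match overlaps another.
Myo5c, chr9:75231764-75232013, plus strand: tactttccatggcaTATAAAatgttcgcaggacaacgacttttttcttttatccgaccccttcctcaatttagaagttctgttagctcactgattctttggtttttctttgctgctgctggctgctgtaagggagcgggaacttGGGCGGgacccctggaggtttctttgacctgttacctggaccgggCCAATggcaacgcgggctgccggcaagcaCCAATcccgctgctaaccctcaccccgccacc
S100a16, first start, chr3:90537004-90537253, plus strand: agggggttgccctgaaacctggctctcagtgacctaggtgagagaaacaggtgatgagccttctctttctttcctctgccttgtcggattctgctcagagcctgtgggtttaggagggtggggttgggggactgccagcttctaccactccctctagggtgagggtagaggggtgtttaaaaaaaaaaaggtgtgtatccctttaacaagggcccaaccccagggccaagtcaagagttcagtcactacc
S100a16, second start, chr3:90540896-90541145, plus strand: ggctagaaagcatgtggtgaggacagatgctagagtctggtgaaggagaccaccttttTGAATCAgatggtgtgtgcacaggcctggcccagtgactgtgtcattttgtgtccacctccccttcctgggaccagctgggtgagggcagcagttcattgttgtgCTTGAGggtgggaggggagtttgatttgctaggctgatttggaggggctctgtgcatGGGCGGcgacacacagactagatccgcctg

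The Myo5c window held a TATA box match 231 to 236 bases before the start, 2 CCAAT matches within 61 bases of it and a GC box match. Of 32851 mouse promoter windows of the same length, 12.4% held TATAAA, 33.8% held CCAAT and 32.7% held GGGCGG. The first S100a16 window held none of the 8 motifs, and the second held an AP-1 match, an NKX2-1 core match and a GC box match, which were found in 6.75%, 13.3% and 32.7% of all windows. No motif other than the GC box was found in both genes. These matches are descriptions of the letters and not binding sites.

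Library totals ran from 22382535 to 38062873 counts with a median of 28494877. In 10 libraries 84.3% to 87.6% of counts fell on protein-coding genes, but the share was 77.8% in WT PBS library 5 and 80.1% in Adm+/- PBS library 6, where the noncoding gene Gm26917 took 16.6% and 13.3%. Levels are therefore given as CPM (counts scaled by library size) after TMM scaling on protein-coding genes, where TMM is a trimmed mean that sets libraries to a common scale. Adm itself gave 74 to 252 counts a library. Its level was 3.96, 7.09 and 4.57 CPM in WT PBS, 7.77, 8.15 and 4.46 CPM in WT LPS, 4.58, 2.87 and 3.62 CPM in Adm+/- PBS, and 3.74, 6.28 and 3.92 CPM in Adm+/- LPS. The Adm+/- mean was lower in both treatments, by 29.5% in PBS and 31.7% in LPS, but the libraries overlapped and neither difference passed edgeR's quasi-likelihood test (adjusted p = 0.999 and 0.480).

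All 3 genes had their lowest level in the LPS-treated Adm+/- lungs. In Adm+/- mice, the fitted LPS level was 0.570 times the PBS level for Lgi3, 0.728 times for Myo5c and 0.690 times for S100a16. The same ratio in WT mice was 0.814, 0.960 and 0.941, with overlapping libraries for each gene, while 17.9% of all genes tested had WT LPS libraries wholly below the WT PBS libraries. Because the tissue was whole lung, fewer cells that express a gene and less RNA of it per cell cannot be told apart.

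**Figure D1:**
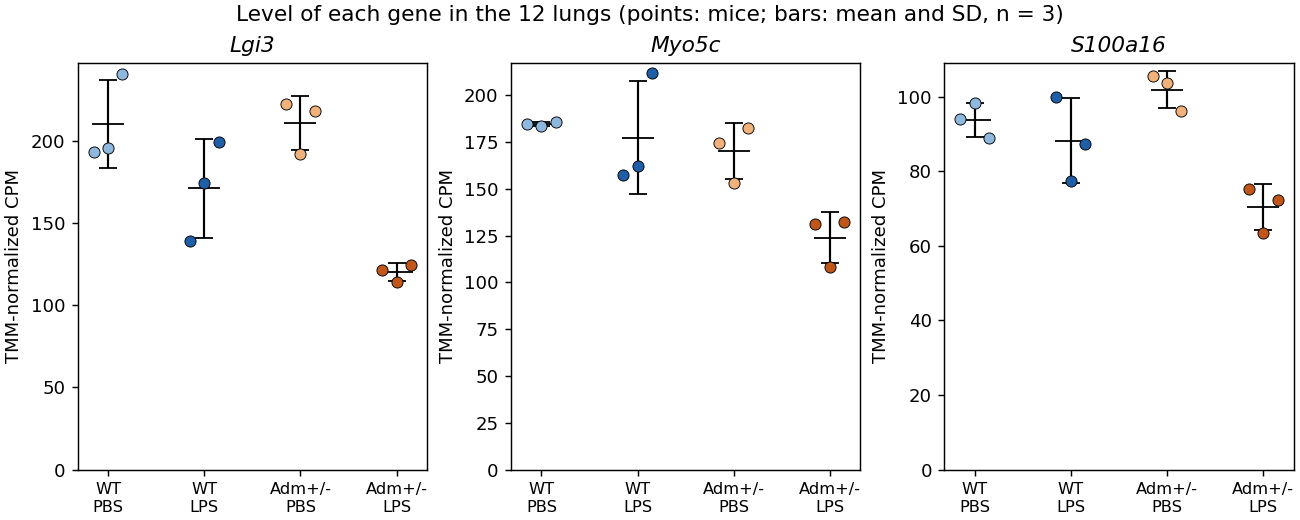
Level of Lgi3, Myo5c and S100a16 (TMM-normalized CPM, axis from 0) in each library, with 1 point per mouse and bars for the mean and SD of the 3 mice of a group. The 3 Adm+/- LPS points lie below every point of the other groups in each panel, at 114.1 to 124.8 CPM for Lgi3, 108.2 to 132.2 CPM for Myo5c and 63.4 to 75.3 CPM for S100a16.

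Lgi3, the secreted ligand of the set, showed the largest difference between treatments. In WT PBS lungs it stood at 193.6, 195.8 and 241.1 CPM and in WT LPS lungs at 139.2, 174.6 and 199.5 CPM. In Adm+/- PBS lungs it stood at 222.8, 191.9 and 218.0 CPM and in Adm+/- LPS lungs at 121.7, 114.1 and 124.8 CPM. The Adm+/- LPS libraries were tightly grouped, while the WT LPS libraries spread from near the Adm+/- LPS level up into the PBS range. Group means were 210 ± 26.8 CPM in WT PBS, 171 ± 30.3 in WT LPS, 211 ± 16.6 in Adm+/- PBS and 120.2 ± 5.49 in Adm+/- LPS (SD, n = 3). The log2 fold change of Lgi3 between LPS and PBS was -0.30 ± 0.14 (SE) in WT mice and -0.81 ± 0.14 in Adm+/- mice, and the response in Adm+/- mice minus that in WT mice was -0.51 ± 0.19. The value in WT mice was -0.17 without WT LPS library 9 and -0.060 without the 3 libraries that stood apart (WT PBS 5, Adm+/- PBS 6 and WT LPS 9). WT LPS library 9 had an ordinary protein-coding share, 85.5%, but the highest squamous epithelium sum, given below. It also held the lowest Lgi3 level of its group, so leaving it out takes away the largest WT fall. The highest Lgi3 level, in WT PBS library 5, came from a library with a low protein-coding share. Scaled on all counts instead, that library gave 174.4 CPM beside 175.4 and 172.0 CPM in the other WT PBS libraries.

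Myo5c, the granule motor, had nearly the same level in the 3 WT PBS libraries, 184.8, 183.7 and 185.6 CPM. In WT LPS lungs it stood at 157.5, 162.3 and 212.1 CPM, so 2 libraries were below and 1 above all WT PBS libraries. Adm+/- PBS lungs gave 174.8, 153.3 and 182.4 CPM and Adm+/- LPS lungs 131.4, 108.2 and 132.2 CPM, with no overlap between these groups. Group means were 184.7 ± 0.962 CPM in WT PBS, 177 ± 30.2 in WT LPS, 170.2 ± 15.1 in Adm+/- PBS and 124 ± 13.6 in Adm+/- LPS (SD, n = 3). The SD in WT PBS was far below that of the other groups and a spread over 3 libraries is itself imprecise. On the log2 scale the LPS difference of Myo5c was -0.06 ± 0.13 (SE) in WT mice and -0.46 ± 0.13 in Adm+/- mice, and the responses differed by -0.40 ± 0.18. The value in WT mice turned to 0.01 without WT LPS library 9 and to 0.02 without the 3 libraries that stood apart. Without WT LPS library 11 it was -0.21, and the difference between genotypes was -0.25.

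S100a16, the calcium-binding protein, was at 93.9, 98.3 and 89.0 CPM in WT PBS and 99.9, 77.3 and 87.3 CPM in WT LPS, where the treated libraries lay on both sides of the controls. In Adm+/- mice it was 105.6, 103.7 and 96.2 CPM with PBS and 75.3, 63.4 and 72.2 CPM with LPS. The Adm+/- PBS mean, 101.8 ± 4.96 CPM, was the highest of the 4 groups and the Adm+/- LPS mean, 70.3 ± 6.17 CPM, the lowest, with 93.7 ± 4.67 CPM in WT PBS and 88.2 ± 11.3 CPM in WT LPS (SD, n = 3). The log2 fold change of S100a16 between LPS and PBS was -0.09 ± 0.11 (SE) in WT mice and -0.54 ± 0.11 in Adm+/- mice, and the responses differed by -0.45 ± 0.15. Without the 3 libraries that stood apart, the WT value was -0.23 and the difference -0.28, and without WT LPS library 10 the WT value was -0.00.

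Both Adm+/- comparisons shared the Adm+/- LPS libraries. Against WT LPS, the Adm+/- LPS log2 difference was -0.51 ± 0.14 for Lgi3, -0.52 ± 0.13 for Myo5c and -0.33 ± 0.11 for S100a16. With PBS, Adm+/- minus WT was 0.01 ± 0.14 for Lgi3, -0.12 ± 0.13 for Myo5c and 0.12 ± 0.11 for S100a16. Only Myo5c had no overlap between genotypes in PBS, with all Adm+/- libraries lower, a pattern found in 2.51% of the 15885 genes tested. The gap was from 182.4 to 183.7 CPM, and scaled on all counts the genotypes overlapped, at 134.2 to 167.4 CPM in WT PBS and 136.3 to 163.4 CPM in Adm+/- PBS. For S100a16 the nearest libraries of the 2 LPS groups were close, at 77.3 CPM in WT LPS library 10 and 75.3 CPM in Adm+/- LPS library 1. Scaled on all counts they were 65.8 and 64.3 CPM.

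Over all 15885 genes tested, LPS and PBS libraries of Adm+/- mice did not overlap, with LPS lower, for 27.1% of genes, and this held for 3 of the 3 genes. The Adm+/- LPS libraries were below all WT LPS libraries for 12.4% of all genes and again for 3 of the 3. A change was called at an adjusted p under 0.05 with a log2 fold change beyond 0.5 in either direction, and 12.2% of genes were called lower by LPS in Adm+/- mice against 7.09% in WT mice. Lgi3 and S100a16 lay inside these limits in Adm+/- mice, S100a16 just past the fold limit at -0.54 and Myo5c just short of it at -0.46, and none lay inside them in WT mice. For the difference in response between genotypes, 0.145% of genes were called and none of the 3 was among them. For Adm+/- against WT in LPS, 1.72% were called lower, again without any of the 3. Since these contrasts chose the genes, these positions describe them and test nothing.

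Levels of different genes can be compared only per length. In CPM per kb of exon, S100a16 was highest in every group (43.5 to 63.0), Lgi3 followed (30.8 to 54.1) and Myo5c was lowest (12.8 to 19.0). Within each gene, the Adm+/- LPS group did not overlap the group next above it. All other neighbours in the order of levels overlapped: for Lgi3 the order upward was WT LPS, WT PBS and Adm+/- PBS, for Myo5c Adm+/- PBS, WT LPS and WT PBS, and for S100a16 WT LPS, WT PBS and Adm+/- PBS.

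The 3 genes were set beside 24 other type II pneumocyte genes that did not include them. In Adm+/- mice 11 of the 24 rose with LPS, 2 fell and 11 were not called, with a median log2 fold change of 0.61 beside -0.01 over all genes. In WT mice 6 rose and none fell, with a median of 0.32 beside 0.01. Lyz2, 1 of those that rose in both genotypes, is also in the leukocyte list. Among all genes tested 12.8% rose and 12.2% fell in Adm+/- mice, and 10.5% rose and 7.09% fell in WT mice. The 2 that fell are 8.33% of the list, which for 24 genes is near the share of all genes. In each genotype 7 of the 24 had negative values, as the 3 genes did in both. The count of 6 in WT mice became 3 without WT LPS library 9 and in a fit of the WT libraries alone.

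Among the surfactant genes, Sftpd, which encodes a lectin of innate defence, rose by 1.54 ± 0.19 (log2, SE) in Adm+/- mice (edgeR adjusted p = 0.000217). Sftpa1, its collectin relative, rose by 0.71 ± 0.21 (adjusted p = 0.0263). Sftpb, needed for surfactant spreading, was at 0.16 ± 0.10 and did not pass (adjusted p = 0.262). Sftpc, the neighbour of Lgi3 on chromosome 14, stood at 9667 ± 1751 CPM in Adm+/- PBS and 9372 ± 208.8 CPM in Adm+/- LPS and did not pass, at -0.04 ± 0.14 (adjusted p = 0.844). The other coding neighbour of Lgi3, Reep4, 6926 bases to the right, fell by 0.72 on the log2 scale in Adm+/- mice (adjusted p = 0.00467).

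Abca3, the lipid transporter of the lamellar body, was at -0.24 ± 0.12 and Nkx2-1, the lung lineage factor, at -0.09 ± 0.12 in Adm+/- mice, and neither passed (edgeR adjusted p = 0.163 and 0.608). Lamp3, a lamellar body membrane protein, was at 0.58 ± 0.27 and Cebpa, a transcription factor, at -0.52 ± 0.26, and these did not pass either (adjusted p = 0.125 and 0.152). The 2 listed genes that fell were Etv5, an ETS factor needed to maintain type II cells, at -1.28 ± 0.18 (adjusted p = 0.000447), and Lpcat1, which makes surfactant phosphatidylcholine, at -0.61 ± 0.10 (adjusted p = 0.00137). Etv5 and Lpcat1 were at -0.42 ± 0.18 and -0.38 ± 0.10 in WT mice. The largest rises in Adm+/- mice were Il33, an alarmin cytokine, at 2.43 ± 0.36, and Chil1, a chitinase-like protein, at 2.23 ± 0.21 (adjusted p = 0.000564 and 7.12e-05). The other genes of the list that rose in Adm+/- mice were Ctsh, Fabp5, Scd1, Slc34a2, Lyz1, Lyz2 and Muc1, by 0.64 to 0.98. No gene of the list passed for the difference between genotypes or for Adm+/- against WT in LPS.

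As the log2 level of a gene minus the mean log2 level of the type II list in the same library, Lgi3 was 1.32 lower with LPS than with PBS in Adm+/- mice and 0.63 lower in WT mice. Myo5c was 0.97 and 0.39 lower on this scale, and S100a16 1.04 and 0.41 lower. Against the mean of the endothelial list described below, the LPS difference was -0.62 in Adm+/- and -0.08 in WT mice for Lgi3, -0.27 and 0.15 for Myo5c, and -0.35 and 0.13 for S100a16, so for Myo5c and S100a16 the sign in WT mice depended on the list subtracted. Summed over the 24 genes, the type II list held 17995 to 18757 CPM in WT PBS, 19104 to 20582 in WT LPS, 16728 to 20509 in Adm+/- PBS and 21217 to 23553 in Adm+/- LPS. The Adm+/- LPS libraries were thus the highest for the summed list and the lowest for each of the 3 genes. With 11 of the 24 genes called higher by LPS in Adm+/- mice and 2 lower, the sum and the mean of the list themselves moved with LPS. Sftpc, the largest part of the sum, did not pass. The sum and the mean are therefore no measure of type II cell number.

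Since the study names S100a16 as an endothelial marker, 27 endothelial genes were read beside it. In Adm+/- mice 5 fell (Kdr, Sox17, Tek, Egfl7 and Ppp1r16b) and 2 rose (Robo4 and Gpihbp1), with a median log2 fold change of -0.11. In WT mice 5 fell (Kdr, Tie1, Sox17, Sox7 and Ppp1r16b) and none rose, with a median of -0.24. The share called lower was 18.5% in both genotypes, beside 12.2% of all genes in Adm+/- and 7.09% in WT mice, and the share called higher in Adm+/- mice was 7.41%, beside 12.8%. Under upper quartile scaling 8 endothelial genes were called lower in Adm+/- mice. Kdr, the main VEGF receptor, fell by 1.11 in Adm+/- and by 0.79 in WT mice on the log2 scale (edgeR adjusted p = 0.000429 and 0.00542). Ppp1r16b, a phosphatase subunit of endothelium, was at -1.73 and -0.93. The study drew Ppp1r16b from these same samples for its lower level in Adm+/- mice, so no p is given and its place in both counts repeats that choice. The junction genes Pecam1 and Cdh5 were at 0.39 ± 0.12 and 0.09 ± 0.11 in Adm+/- mice and were not called. Nor were Cldn5, a tight junction protein, at 0.14 ± 0.26 and Calcrl, the receptor of adrenomedullin, at -0.20 ± 0.32. In a fit of the WT libraries alone, 0 of the endothelial genes passed as lower, and 3 did without WT LPS library 9. The only listed gene called for Adm+/- against WT in LPS was Aplnr, the apelin receptor, which was higher by 0.92 ± 0.15 (adjusted p = 0.0109), a direction in which 0.327% of all genes were called.

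**Figure D2:**
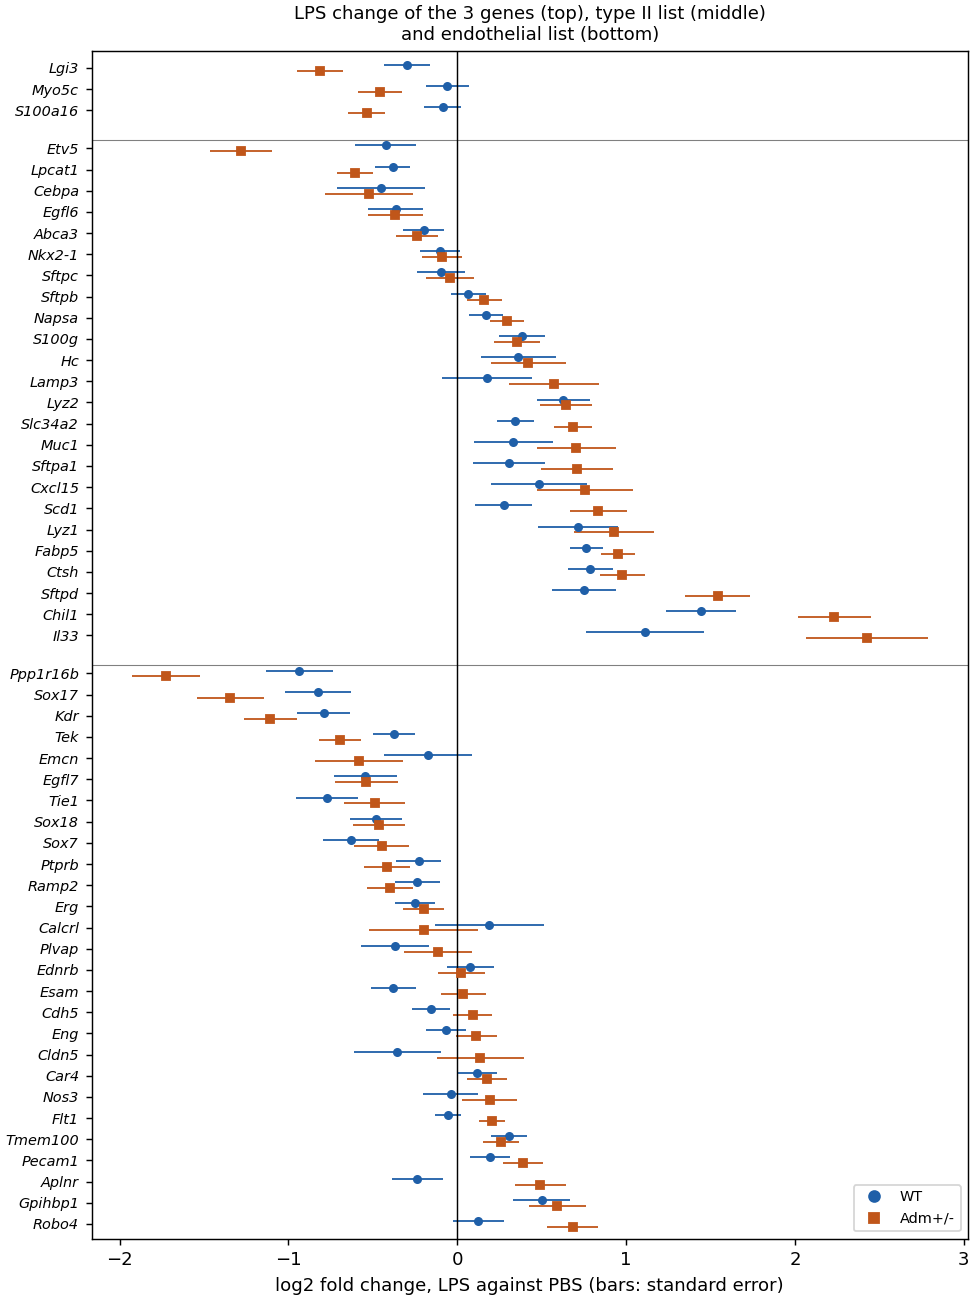
Log2 fold change between LPS and PBS with its standard error for the 3 genes (top), 24 type II pneumocyte genes (middle) and 27 endothelial genes (bottom), in WT mice (circles) and Adm+/- mice (squares). Lgi3, Myo5c and S100a16 are at -0.81, -0.46 and -0.54 in Adm+/- mice, while the median of the type II list is at 0.61 and that of the endothelial list at -0.11.

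Of 8 Lgi3 paralogs, receptors of the family and linked proteins, 7 had enough counts to test and Lgi1 did not. In Adm+/- mice 1 fell and 1 rose (14.3% each, beside 12.2% and 12.8% of all genes), and in WT mice 1 fell and none rose, counts near those of all genes. Lgi2, the paralog with the most RNA, was at 28.9 CPM in Adm+/- PBS and 44.3 CPM in Adm+/- LPS, a log2 difference of 0.62 ± 0.27 that did not pass (edgeR adjusted p = 0.100). The receptors Adam22 and Adam23 were at -0.14 ± 0.16 and -0.12 ± 0.16 in Adm+/- mice and did not pass (adjusted p = 0.556 and 0.615). Adam11, a relative of these receptors, fell by 0.65 in Adm+/- mice and by 0.76 in WT mice (adjusted p = 0.0466 and 0.0337). Flot1, a membrane raft protein, rose by 0.77 ± 0.13 in Adm+/- mice (adjusted p = 0.00134).

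Of 17 genes for class V myosins and secretory traffic, 3 fell and 4 rose in Adm+/- mice, and 1 fell and 3 rose in WT mice. These are 17.6% and 23.5% of the list in Adm+/- mice, beside 12.2% lower and 12.8% higher among all genes, and 5.88% and 17.6% in WT mice, beside 7.09% and 10.5%. The myosins Myo5a and Myo5b were at -0.25 ± 0.10 and -0.22 ± 0.09 in Adm+/- mice and did not pass (edgeR adjusted p = 0.0751 and 0.0936). Those that fell were the secretory GTPase Rab27b, its effector Sytl2 and the lysosome-related organelle GTPase Rab38, by 1.02, 1.11 and 0.85 on the log2 scale (adjusted p = 0.000246, 0.000209 and 0.0234). Sytl2 also fell in WT mice, by 0.56 (adjusted p = 0.0155). Those that rose in Adm+/- mice were Rab32, Myrip, Sytl1 and Mlph, the first 3 also in WT mice. For Adm+/- against WT in LPS, 2 of the 17 were called lower (11.8%, beside 1.72% of all genes). They were Rab27b and the granule GTPase Rab3d, by 0.57 and 0.82 (edgeR adjusted p = 0.0481 and 0.0363), and these calls were lost under 2 or more alternatives.

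**Figure D3:**
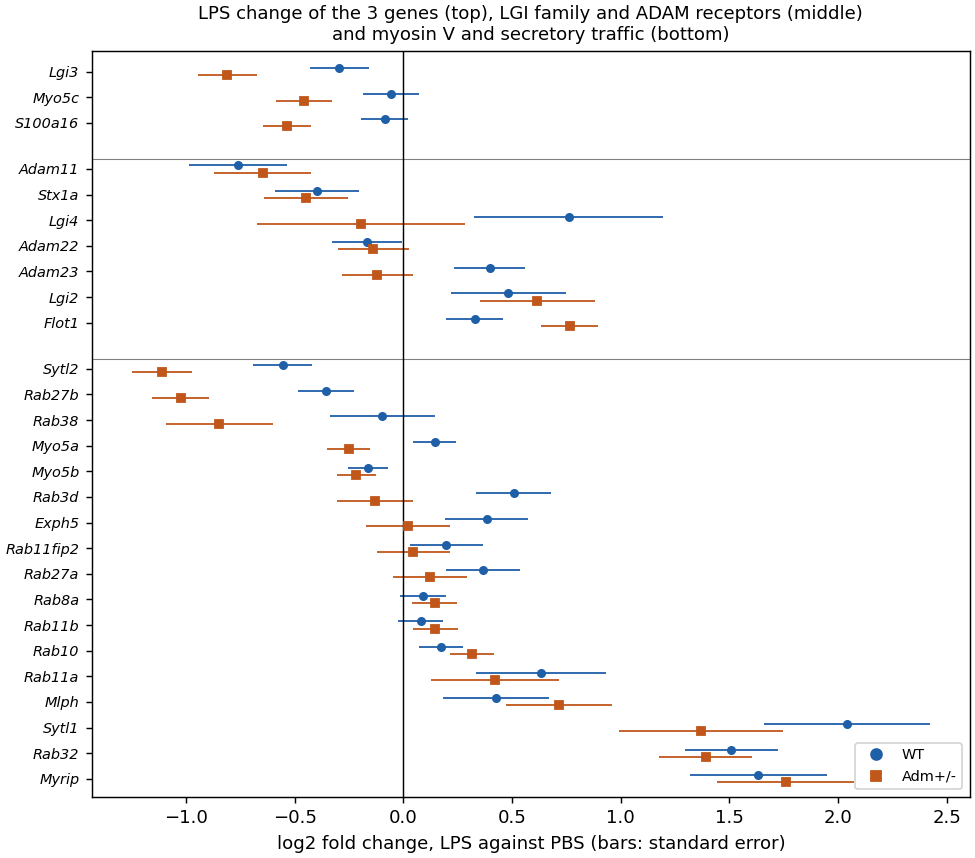
Log2 fold change between LPS and PBS with its standard error for the 3 genes (top), the LGI family with ADAM receptors (middle) and class V myosins with secretory traffic genes (bottom), in WT mice (circles) and Adm+/- mice (squares). Sytl2, Rab27b and Rab38 lie furthest to the left in Adm+/- mice, at -1.11, -1.02 and -0.85, and Myo5a and Myo5b lie near -0.2.

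Of 12 relatives of S100a16 tested, 3 rose in Adm+/- mice and 7 in WT mice, which is 25.0% and 58.3% beside 12.8% and 10.5% of all genes. None was called lower in either genotype, where 12.2% and 7.09% of all genes were, so a list of this size does not set S100a16 apart. The neutrophil alarmins S100a8 and S100a9 rose by 5.86 ± 0.67 and 5.49 ± 0.61 on the log2 scale in Adm+/- mice (edgeR adjusted p = 0.000131 and 0.000115), and S100a6 rose by 0.58 ± 0.14 (adjusted p = 0.0101). S100a13 and S100b had negative values, at -0.38 ± 0.17 and -0.32 ± 0.24, and did not pass (adjusted p = 0.106 and 0.348). S100a14, the left neighbour of S100a16, had a mean of 45.5 CPM (SD 24.5) in the WT LPS lungs, and of 19.7 CPM (SD 1.36) in LPS-treated Adm+/- lungs. Its rise in WT mice, 1.15 ± 0.38, passed narrowly (adjusted p = 0.0491) and was lost under limma-voom and upper quartile scaling, among other settings. The part of the squamous RNA of WT LPS libraries 9 and 11, described below, in the S100 counts of WT mice was not tested.

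Markers of other tissues differed between the libraries that the genotype comparison in LPS rests on. The skeletal muscle list of 16 genes summed to 1006 to 2483 CPM in the WT LPS libraries and to at most 62.7 CPM in each of the other 9, and 15 of 15 tested genes rose in WT mice and 1 of 15 (Acta1, 6.67%) in Adm+/- mice, beside 10.5% and 12.8% of all genes. The squamous epithelium list of 22 genes summed to 3647 CPM in WT LPS library 9, 74.2 CPM in library 10 and 1888 CPM in library 11, and to 19.0 to 114.6 CPM elsewhere, with 10 of 14 tested genes called higher in WT mice (71.4%, beside 10.5% of all genes) and 1 (Tgm1, 7.14%, beside 12.8%) in Adm+/- mice. In libraries 9, 10 and 11, in that order, S100a16 was at 99.9, 77.3 and 87.3 CPM, Lgi3 at 139.2, 174.6 and 199.5 CPM and Myo5c at 157.5, 162.3 and 212.1 CPM. Library 10 had the highest muscle sum, 2483 CPM. The part of the muscle and squamous RNA in the values of the 3 genes in WT LPS lungs was not tested.

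Of the leukocyte list, 11 of 15 genes were called higher in Adm+/- mice and 10 of 15 in WT mice (73.3% and 66.7%, beside 12.8% and 10.5% of all genes), and its sum was 2815 to 3421 CPM in Adm+/- LPS beside 2763 to 4128 CPM in WT LPS. The neuron and glia list summed to 45.0 to 57.7 CPM in Adm+/- LPS and to 52.4 to 144.5 CPM in the other libraries. In Adm+/- mice 2 of its 14 genes fell (Stmn2 and Gap43, 14.3%) and 1 rose (Tubb3, 7.14%). Of the general epithelial list, 6 of 20 rose and none fell in Adm+/- mice, and of the type I pneumocyte list 2 of 14 rose (Pdpn and Rtkn2) and 1 fell (Igfbp2). Of 14 airway club and ciliated genes 1 rose (Aldh1a1) and 1 fell (Tppp3), and of 6 mesothelial genes 1 rose (Msln). Among all genes 12.8% were called higher and 12.2% lower in Adm+/- mice, so the counts of the neuron and glia, type I, airway and mesothelial lists were near these shares or below them. The part of any of these in the levels of the 3 genes was not tested.

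**Figure D4:**
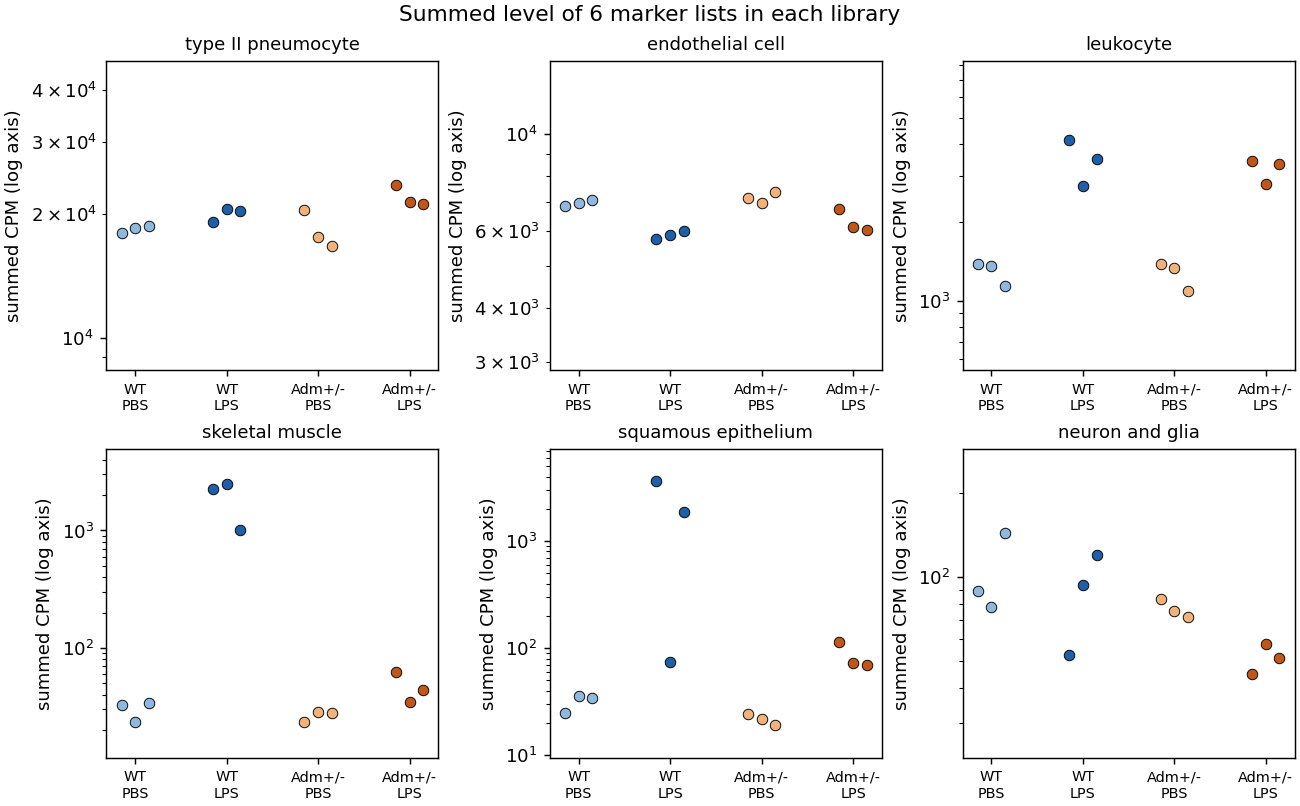
Summed CPM (log axis) of 6 marker lists in each of the 12 libraries, with 1 point per library and groups on the horizontal axis. The muscle sums of the 3 WT LPS libraries, 1006 to 2483 CPM, lie above all others, 2 WT LPS libraries stand out for squamous epithelium, and the type II sums are highest in Adm+/- LPS, from 21217 CPM.

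The 3 genes did not follow one another equally over the 12 libraries. Lgi3 and Myo5c had a Pearson r of 0.868 on log2 CPM, Lgi3 and S100a16 of 0.725 and Myo5c and S100a16 of 0.706. After the group means were subtracted these were 0.713, -0.430 and 0.123, so the pair of Lgi3 and Myo5c was the only one with a high value within groups. By this within-group value Myo5c ranked 1393 among 15884 genes for Lgi3, and the endothelial gene Ppp1r16b was nearer to both, at 0.852 with Lgi3 and 0.807 with Myo5c. The study drew Ppp1r16b from these same samples, and other endothelial genes went the other way. Pecam1 and Cdh5 were at -0.679 and -0.722 with Lgi3, and at -0.305 and -0.329 with Myo5c. Lgi3 and Sftpc, side by side on the chromosome, had an r of 0.265 over the 12 libraries and of 0.557 after the group means were subtracted. All such values come from the same 12 libraries in 4 groups and share their scaling, and no p is given.

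The genes whose pattern over the 12 libraries was most like that of Lgi3 were Iqce, Cbx8, Fam53b, Synm and Nav2, with r from 0.982 to 0.985. Iqce averaged 48.3 CPM in Adm+/- PBS and 26.8 CPM in Adm+/- LPS, and the others also had their lowest mean there. For Myo5c they included 1700020L24Rik, Vav3, Paqr7 and Mettl7a1, with r from 0.944 to 0.958. Vav3, a guanine nucleotide exchange factor, averaged 42.1 CPM in Adm+/- PBS, 22.9 CPM in Adm+/- LPS and 39.4 CPM in WT LPS. For S100a16 they were Zfp511, Cyp27a1, Nmnat1, Tmem126b and Trappc2l, with r from 0.904 to 0.946, and Cyp27a1, the sterol 27-hydroxylase, averaged 8.26 CPM in Adm+/- PBS and 2.97 CPM in Adm+/- LPS. No gene was among the first 5 of more than 1 of the 3 genes. The like genes were picked for their likeness to genes lowest in Adm+/- LPS lungs, so their low level there follows from that choice.

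Within groups the nearest genes differed, apart from Fam53b, which was again among those nearest to Lgi3. After subtraction of the group means they were Rims3, Fam53b and Gtf2i for Lgi3 (r from 0.966 to 0.973), and Lrrc1, Srms and Stard9 for Myo5c (0.942 to 0.980). For S100a16 they were Fbxw2 and the leukocyte genes Was and Ptpn6 (0.962 to 0.973). Was and Ptpn6 averaged 17.0 and 68.9 CPM in WT LPS beside 7.04 and 25.6 CPM in WT PBS, and 14.2 and 55.6 CPM in Adm+/- LPS. With rank correlation in place of Pearson's, 1 of 5 of the nearest genes remained for Lgi3, 1 of 5 for Myo5c and 2 of 5 for S100a16.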

How the data were processed

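Total RNA of 12 whole lungs was sequenced from rRNA-depleted, strand-specific libraries. Per the labels, the authors trimmed reads with Trim Galore, aligned them to mm10 with HISAT2 2.1.0 and counted them per gene with featureCounts 1.6.4. The deposited values are raw read counts per gene, not normalized, for 12 libraries, and groups were taken from the sample titles. The annotation release and strand setting were not given in the sources used here, and Gencode M21 was used for positions because 99.7% of gene identifiers matched it.

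Protein-coding genes (21950 of 52550) were filtered with filterByExpr, which left 15885, scaled by TMM and fitted together in edgeR 4.0.16 (quasi-likelihood F test, 4 groups of 3, 8 residual degrees of freedom) under R 4.3.3, with Benjamini-Hochberg adjusted p-values. A gene was called where its adjusted p was under 0.05 and its log2 fold change exceeded 0.5 in either direction. Standard errors were obtained from the fold change and its F value. Log2 CPM used a prior count of 2. Alternatives used other scalings, filters and samples, limma 3.58.1 and DESeq2 1.42.0. No same-group pair of libraries agreed within sampling noise (lowest chi-square per degree of freedom 16.0). p-values measure the spread between libraries only.

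The 3 genes and all gene lists were chosen with earlier results of these data known. Named genes were the 3 genes, Adm, the most abundant members per length of each list, called members of the type II, endothelial and family lists, chromosome neighbours, and the genes most correlated with each of the 3 over the 12 libraries. Of those, the genes described were picked after their values were seen. Abca3, Lamp3, Nkx2-1, Cebpa, Pecam1, uncalled family members and called members of the other lists fall outside this rule and were also chosen after their values were seen. One gene that this rule would name is not reported here.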

Additional observations from a re-analysis of the deposited data

Results flagged for a closer look

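8 of 15 skeletal muscle genes tested (53.3%, beside 0.145% of all genes) differed between the genotypes in their response to LPS, by edgeR's test of the difference itself. The log2 response in Adm+/- mice minus that in WT mice was -4.98 for Actn3, -3.68 for Neb, -5.27 for Ryr1, -5.53 for Mylpf, -5.44 for Atp2a1, -5.27 for Tnni2, -6.62 for Myh8 and -4.46 for Tnnt3. All 8 rose with LPS in WT mice, whose LPS libraries are those against which Lgi3, Myo5c and S100a16 were lower in Adm+/- mice, and their part in those values was not tested. All 8 were negative under every alternative run, but limma-voom called 1 of the 8, and with 1 library left out at a time 4 (without Adm+/- PBS library 7) to 8 were called. Groups of 3 libraries were not tested for single outlying samples.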

How the results depend on the processing

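Lgi3 lay past the call limits for LPS in Adm+/- mice under 22 of 22 settings, S100a16 under 21 and Myo5c under 4. S100a16 fell short without Adm+/- LPS library 2, at -0.47. Myo5c lay past them under upper quartile scaling and without Adm+/- PBS library 7, Adm+/- LPS library 1 or Adm+/- LPS library 12. None of the 3 lay past them in WT mice or for the difference between genotypes under any setting run. For Adm+/- against WT in LPS, Lgi3 lay past them under 4 settings (DESeq2, without WT PBS library 5, without WT LPS library 9 and without the 3 libraries that stood apart) and Myo5c under 3 of these.

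With 1 library left out at a time, the log2 fold change in Adm+/- mice ran from -0.88 to -0.78 for Lgi3, -0.53 to -0.37 for Myo5c and -0.59 to -0.47 for S100a16. In WT mice it ran from -0.42 to -0.17, -0.21 to 0.01 and -0.19 to -0.00, and for the difference between genotypes from -0.64 to -0.39, -0.47 to -0.25 and -0.53 to -0.34. Genes called numbered 1443 (without WT LPS library 9) to 3074 in WT mice (2791 with all), 3033 to 4503 in Adm+/- mice (3968), 5 (without Adm+/- PBS library 7) to 65 (without WT LPS library 10) for the difference (23), 81 (without Adm+/- LPS library 1) to 573 (without WT PBS library 5) for Adm+/- against WT in LPS (325) and 0 to 0 in PBS. Type II genes called lower numbered 0 to 1 in WT and 2 to 2 in Adm+/- mice, and called higher 3 (without WT LPS library 9) to 6 and 9 to 13. Endothelial genes called lower numbered 3 (without WT LPS library 9) to 7 and 4 to 6.

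Without the 3 libraries that stood apart, Lgi3 was at -0.060 and S100a16 at -0.23 in WT mice, the difference was -0.71 for Lgi3 and -0.28 for S100a16, and 1665 genes were called in WT mice, 51 for the difference and 1000 for Adm+/- against WT in LPS, with 3 endothelial genes lower in WT mice. Fitting only the libraries of the comparison gave 1152 genes in WT mice, 3 type II genes higher and 0 endothelial genes lower. DESeq2 called 168 genes for the difference, 72.6% of them lower, and 803 for Adm+/- against WT in LPS, limma-voom called 1 for the difference, and upper quartile scaling gave 8 endothelial genes lower in Adm+/- mice. Leaving out WT PBS library 5 and WT LPS library 9 takes away the highest WT PBS and the lowest WT LPS level of Lgi3. The causes of these shifts were not tested. The count of type II genes called higher was an alternative added after the values were seen. No paired analysis was possible because each library carries its own number and the groups share none. For Adm+/- against WT in PBS edgeR called 0 genes, with 344 at an unadjusted p under 0.05, and DESeq2 and limma-voom also 0. Over the 156 calls of listed genes, 430 results under an alternative lost the call, 2834 kept it and 0 changed direction. Depth was 1440 to 5681 counts a library for the 3 genes and 74 to 252 for Adm.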
